A study of Arabidopsis thaliana with 42 samples.

Results

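The breakdown of branched-chain amino acids and of lysine was followed through the life of the Arabidopsis thaliana leaf by the transcripts of 10 genes. The members were taken by locus identifier, with the transcript models of each locus summed, and they are 10 of the 33604 genes listed. They are BCAT2 (AT1G10070), BCE2 (AT3G06850), IVD (AT3G45300), MCCA (AT1G03090), MCCB (AT4G34030), D2HGDH (AT4G36400), ETFA (AT1G50940), ETFB (AT5G43430), ETFQO (AT2G43400) and LKR/SDH (AT4G33150). All 10 reached 1 FPKM in at least 2 libraries and were tested. Levels are FPKM (fragments per kilobase of transcript relative to all mapped fragments), a unit that corrects for transcript length, so that levels of different genes can be set side by side.

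Leucine, isoleucine and valine are broken down in plant mitochondria: an aminotransferase removes the amino group, a dehydrogenase complex turns the resulting keto acid into an acyl-CoA, and separate enzymes then handle each acyl-CoA. Lysine is broken down through saccharopine, and a later product, 2-hydroxyglutarate, is oxidised by D2HGDH. In plants IVD and D2HGDH hand their electrons to the electron transfer flavoprotein and its ubiquinone oxidoreductase, which pass them to the respiratory chain, a route known for feeding respiration when carbohydrate is short, as in darkened leaves.

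Leaves of wild-type plants were sampled every 2 days from day 4 to day 30 after emergence, which gave 14 ages, and each age was sequenced in 2 sets, which gave 28 total RNA libraries. All leaves shared the genotype and carried no stated treatment, so the groups differ by age alone as far as the labels say. The accession, the leaf position, the growth conditions and the hour of harvest are not given in the sources used here. Days 4, 6 and 8 were taken as young, days 14, 16 and 18 as mature, days 20, 22 and 24 as late mature and days 26, 28 and 30 as old, with 6 libraries each. The design text calls the sets independent biological replicates, but nothing states what was separate between them, so the p-values rest on how far libraries of one age differ, and part of that may be technical. Read depth cannot be read from FPKM.

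The day 4 library of set 1 stood apart, with a summed FPKM of 331479 against 439949 to 484348 in the others, and with 13359 genes at 1 FPKM or more against 15335 in the day 4 library of set 2. Its correlation with that library was 0.934 across tested genes, against 0.976 to 0.990 within the other days. Genes of rRNA held 1.12% of its summed FPKM, against 0.0108% in the day 4 library of set 2. The next highest share was 0.343%, in the day 28 library of set 1, against 0.0598% in the day 28 library of set 2. Leaf markers were present in every library, with the summed FPKM of 4 photosynthesis genes between 6384 and 8792 in young and between 340.6 and 2700 in old leaves. Of 6 meristem and flower markers, WUS was listed at 0 in all stages compared, and the 6 summed to at most 2.36 FPKM in any library of those stages. AG and SEP3 were the highest of them, at up to 1.08 and 1.24 FPKM. Because a whole leaf was sampled, fewer cells of a type and less RNA per cell cannot be told apart.

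All 10 members varied with leaf age (limma F test over the 14 ages, adjusted p between 8.25e-14 and 0.000108), among 91.0% of all genes tested. BCAT2 is among the 10. It passed the filter on low values only through the later ages, where it is high, so its place in this count is no support. Their summed level rose from between 27.3 and 56.2 FPKM in young leaves to between 87.0 and 99.8 in mature, between 115 and 176 in late mature and between 185 and 580 FPKM in old leaves, with no overlap between neighbouring stages. As a share of the FPKM of nuclear genes, rRNA and tRNA genes left out, the members took 0.0114% to 0.0150% in young and 0.0457% to 0.136% in old leaves. The mean level of 8 members was highest at day 30, that of BCAT2 at day 26 and that of MCCB at day 28. The share of all genes highest at day 30 was not computed, so the count of 8 cannot be called particular to the members.

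**Figure D1:**
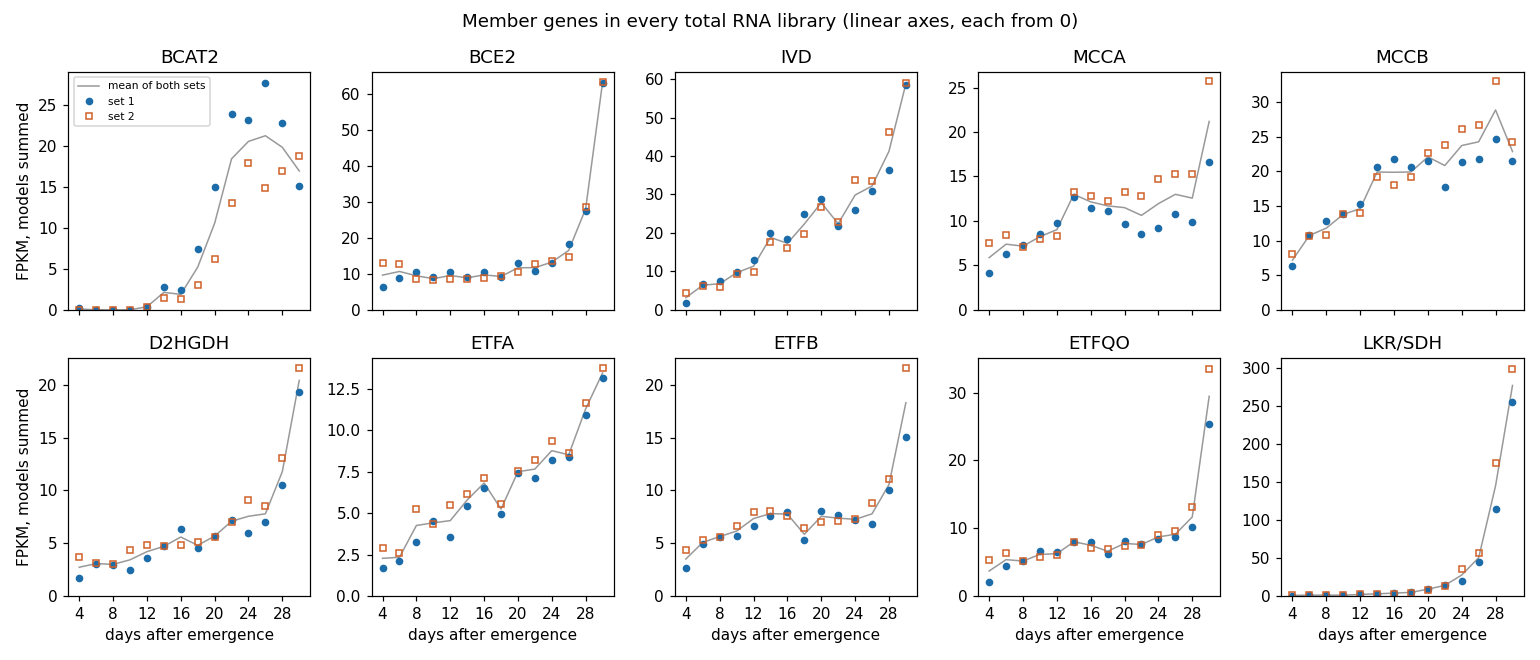
FPKM of each member (vertical axis, linear from 0) against days after emergence (horizontal axis) in every total RNA library, with filled circles for set 1, open squares for set 2 and a line for their mean. BCAT2 climbs between days 14 and 22 and then levels off. IVD and ETFA climb from the young ages on, with dips between some neighbouring ages. The mean of BCE2, IVD, MCCA, D2HGDH, ETFB, ETFQO and LKR/SDH has its steepest step from day 28 to day 30.

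The members left their young levels at different ages. IVD and MCCB stood above the highest young library in both sets from day 10 to the end, and BCAT2 and LKR/SDH did so from day 12. MCCA and D2HGDH followed from day 14, and ETFA, ETFB and ETFQO from day 20. BCE2 was last, from day 24. How many of all genes had left their young range by these ages was not computed.

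BCAT2 encodes a branched-chain aminotransferase, an enzyme of the type that starts the breakdown of leucine, isoleucine and valine. Its level was 0.192 FPKM in the day 4 library of set 1 and was listed at 0 in the other libraries of days 4 to 10. At day 12 it was 0.363 FPKM in set 1 and 0.371 in set 2. The mature libraries ranged from 1.32 to 7.38 FPKM with a median of 2.59, the late mature from 6.17 to 23.8 with a median of 16.4, and the old from 14.8 to 27.6 with a median of 17.8. BCAT2 was the only member listed at 0 in any library, and its old libraries lay above every mature one, while the late mature and mature ranges overlapped.

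The change of BCAT2, as the difference of mean log2(FPKM + 1), was 1.84 ± 0.17 (SE) from young to mature leaves (adjusted p = 4.89e-08, limma). From mature to late mature leaves it was 2.14 ± 0.17 (adjusted p = 2.51e-08) and from mature to old leaves 2.43 ± 0.17 (adjusted p = 3.80e-10). The first of these depends on the added 1, since the young libraries are near 0, and is no measure of fold. BCAT2 was under 1 FPKM in every library up to day 12 and passed the filter on low values only through the later ages, where it is high, so its test against young leaves is conditioned on that difference. Within the old stage neither step of BCAT2 passed: the difference was -0.05 ± 0.29 from day 26 to 28 (adjusted p = 0.959) and -0.21 ± 0.29 from day 28 to 30 (adjusted p = 0.640). Set 1 was above set 2 on 5 of the 6 days from day 20 to day 30.

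BCAT1, another branched-chain aminotransferase gene and the neighbour of BCAT2, ran the other way early in life. Its young libraries ranged from 4.69 to 10.4 FPKM with a median of 7.19, and its mature ones from 1.99 to 2.93 with a median of 2.34, a fall of 1.29 (log2 change -1.29, adjusted p = 8.34e-07). The ratio of BCAT2 to BCAT1 was at most 0.0409 in young leaves, 0.451 to 3.70 in mature, 3.20 to 23.6 in late mature and 5.33 to 13.7 in old leaves. From day 18 on BCAT2 was the higher in both sets. The sequences of paralogues can share reads, and how the authors' counting split such reads between BCAT1 and BCAT2 is uncertain.

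**Figure D2:**
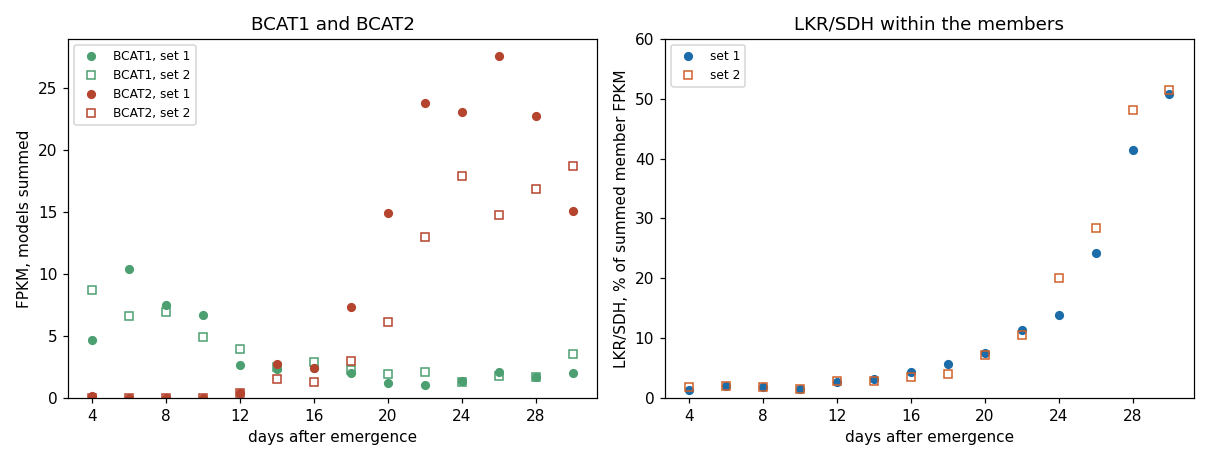
Left, FPKM of BCAT1 and BCAT2 in every library against days after emergence, with filled circles for set 1 and open squares for set 2; right, LKR/SDH as a percent of the summed FPKM of the 10 members in each library. BCAT2 lies above BCAT1 in both sets from day 18, and LKR/SDH goes from 1.34% in the day 4 library of set 1 to 50.8% and 51.5% at day 30.

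BCE2 encodes the acyltransferase (E2) subunit of the branched-chain keto acid dehydrogenase complex, which commits the carbon skeletons to breakdown. It was already expressed in young leaves, between 6.32 and 12.9 FPKM with a median of 9.55, and in mature leaves it lay between 8.64 and 10.5 with a median of 9.12. Late mature libraries held 10.4 to 13.4 FPKM. Then the level went up in steps, to 18.2 (set 1) and 14.7 (set 2) at day 26, 27.4 and 28.6 at day 28, and 63.0 and 63.2 at day 30, so that the old libraries all exceeded the mature ones.

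From young to mature leaves BCE2 was the member that did not pass, with a log2 change of -0.05 ± 0.14 (adjusted p = 0.751). From mature to late mature it passed narrowly (0.36 ± 0.14, adjusted p = 0.0345), a call lost on leaving out set 1 of day 14, 18, 20 or 24 or set 2 of day 14, 16, 18, 22 or 24 (adjusted p up to 0.106) or with no filter on low values (adjusted p = 0.0518). Under quantile normalization BCE2 changed by 0.10 over that step and did not pass (adjusted p = 0.361, limma). From mature to old leaves it rose 3.87-fold by mean FPKM (log2 change 1.64 ± 0.14, adjusted p = 4.71e-09), and from day 28 to day 30 by 1.14 ± 0.24 (adjusted p = 0.00147).

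IVD encodes isovaleryl-CoA dehydrogenase, which oxidises the acyl-CoA derived from leucine. It rose in each comparison of stages, from between 1.80 and 7.55 FPKM (median 6.09) in young leaves to between 16.2 and 24.8 (median 19.1) in mature, between 21.9 and 33.7 (median 26.4) in late mature and between 30.9 and 59.0 (median 41.2) in old leaves. The young and mature groups were separate, the mature and late mature groups overlapped, and the old libraries all lay above the mature ones. The log2 change was 1.74 ± 0.14 from young to mature (adjusted p = 8.06e-09), 0.43 ± 0.14 from mature to late mature (adjusted p = 0.0133) and 1.10 ± 0.14 from mature to old (adjusted p = 9.73e-07). In neither of the final steps did IVD pass (day 30 against day 28: 0.51 ± 0.24, adjusted p = 0.115). The last step did pass under quantile normalization (0.54, adjusted p = 0.0174), after rescaling to nuclear genes (0.49, adjusted p = 0.0499) and without day 4 in the fit (0.51, adjusted p = 0.0127). The change from mature to late mature leaves did not pass under quantile normalization (0.20, adjusted p = 0.0832, limma).

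MCCA and MCCB encode the subunits of 3-methylcrotonyl-CoA carboxylase, the biotin enzyme that follows IVD in leucine breakdown. MCCA ranged from 4.19 to 8.44 FPKM in young leaves and from 11.1 to 13.3 in mature ones, and MCCB from 6.32 to 12.8 and from 18.0 to 21.8. The mature libraries of each gene lay above its young ones, and both genes rose (MCCA 0.79 ± 0.12, adjusted p = 2.43e-05; MCCB 0.97 ± 0.10, adjusted p = 2.87e-07).

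From mature to old leaves MCCA and MCCB had the smallest differences of the 10 members. MCCA was between 9.88 and 25.7 FPKM in old leaves and did not pass against mature leaves (0.26 ± 0.12, adjusted p = 0.0672); without day 4 in the fit it did (adjusted p = 0.0397), and without day 30 the difference was 0.03. MCCB was between 21.4 and 33.0 FPKM in old leaves and passed with a small difference (0.32 ± 0.10, adjusted p = 0.00917), which under quantile normalization was -0.03 (adjusted p = 0.816).

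The sets differed for both carboxylase genes in older leaves: set 2 was above set 1 on all 6 days from day 20 to day 30. This was not particular to them. Set 2 was also above set 1 on all 6 of these days for ETFA and on 5 for IVD. It was so on 4 for BCE2, D2HGDH, ETFB, ETFQO and LKR/SDH, and on 1 for BCAT2. Within set 1 the change from mature to old leaves was 0.04 for MCCA and 0.10 for MCCB, and within set 2 it was 0.48 and 0.54. From day 28 to day 30 the levels of the genes went different ways, but whether their changes differed was not tested. MCCA went from 9.88 and 15.2 FPKM at day 28 to 16.7 and 25.7 at day 30 (0.71 ± 0.22, adjusted p = 0.0188), whereas MCCB went from 24.7 and 33.0 to 21.4 and 24.3 (-0.31 ± 0.18, adjusted p = 0.200). The MCCA call did not hold with no replicate block (adjusted p = 0.0728, limma). It also did not hold without the day 28 library of set 1 (difference 0.56) or the day 30 library of set 2 (difference 0.56). The ratio of MCCA to MCCB was 0.400 and 0.461 at day 28 and 0.778 and 1.06 at day 30.

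LKR/SDH encodes lysine-ketoglutarate reductase/saccharopine dehydrogenase, the bifunctional enzyme that opens lysine breakdown. In young leaves it was the lowest member after BCAT2, between 0.366 and 1.09 FPKM with a median of 0.970. Mature libraries held 2.49 to 5.70 FPKM with a median of 3.33, and late mature ones 8.16 to 35.3 with a median of 13.9. In old leaves the level was 44.7 (set 1) and 55.9 (set 2) at day 26, 115 and 175 at day 28, and 256 and 299 at day 30. No stage overlapped the one before it.

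The log2 change of LKR/SDH was 1.29 ± 0.15 from young to mature leaves (adjusted p = 6.60e-07), 1.79 ± 0.15 from mature to late mature (adjusted p = 3.95e-08) and 4.79 ± 0.15 from mature to old (adjusted p = 5.11e-15). The mean FPKM of the old libraries, 158 ± 105 (SD, n = 6), was 42.8-fold that of the mature ones, 3.69 ± 1.15 (SD, n = 6); the large SD spans the climb from day 26 to day 30. LKR/SDH also passed in both final steps, with 1.49 ± 0.26 from day 26 to 28 (adjusted p = 0.00131) and 0.96 ± 0.26 from day 28 to 30 (adjusted p = 0.00894). The last of these calls was lost without the day 28 library of set 1 (0.67, adjusted p = 0.142) or the day 30 library of set 2 (0.88, adjusted p = 0.0663).

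LKR/SDH thereby went from 1.34% to 2.01% of the summed member FPKM at days 4 to 8 to 50.8% and 51.5% at day 30. It was the most abundant member in both sets from day 26. Without it the other 9 members summed to 247.6 and 281.4 FPKM at day 30.

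The LKR/SDH level is a sum over 3 transcript models, and the split between them changed with age. Model AT4G33150.2 held 95.7 and 130 FPKM at day 28 and 256 and 299 at day 30. Model AT4G33150.3 held 19.2 and 45.6 FPKM at day 28 and was near 0 in both libraries at day 30. Model AT4G33150.1 was under 1 FPKM in every library. The authors' software divides reads among overlapping models, so the split is less certain than the sum.

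D2HGDH encodes D-2-hydroxyglutarate dehydrogenase. It lay between 1.71 and 3.72 FPKM (median 3.03) in young leaves, between 4.51 and 6.30 (median 4.79) in mature and between 5.62 and 9.11 (median 6.48) in late mature leaves. Old libraries held 7.02 and 8.54 FPKM at day 26, 10.5 and 13.1 at day 28, and 19.3 and 21.6 at day 30. All mature libraries exceeded the young ones and all old libraries exceeded the mature ones. The change was 0.63 ± 0.12 from young to mature (adjusted p = 0.000201) and 1.16 ± 0.12 from mature to old (adjusted p = 1.22e-07). With the most abundant transcript model alone the first of these was 0.28 and did not pass (adjusted p = 0.208). The step from mature to late mature was small (0.36 ± 0.12, adjusted p = 0.0208) and was lost on leaving out set 1 of day 20 or 22 or set 2 of day 14, 16 or 24 (adjusted p up to 0.0914). Under quantile normalization it was 0.09 and did not pass (adjusted p = 0.468, limma).

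ETFA and ETFB encode the alpha and beta subunits of the electron transfer flavoprotein. ETFA ranged from 1.67 to 5.27 FPKM in young, 4.96 to 7.15 in mature, 7.11 to 9.35 in late mature and 8.39 to 13.8 in old leaves. ETFB ranged from 2.66 to 5.63, 5.26 to 8.00, 7.04 to 8.05 and 6.78 to 21.6 FPKM in the same order. Young and mature groups of both genes overlapped by a small margin, and the old group was wholly above the mature one for ETFA but not for ETFB.

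ETFA rose by 0.86 ± 0.10 from young to mature leaves (adjusted p = 4.21e-07), 0.37 ± 0.10 from mature to late mature (adjusted p = 0.00323) and 0.79 ± 0.10 from mature to old (adjusted p = 6.51e-07). ETFB rose by 0.52 ± 0.10 (adjusted p = 0.000160), had a late mature difference of 0.06 ± 0.10 that did not pass (adjusted p = 0.652), and rose by 0.62 ± 0.10 from mature to old (adjusted p = 1.75e-05). Under quantile normalization the young to mature difference of ETFB was 0.12 and did not pass (adjusted p = 0.179), and its late mature difference was -0.20 (adjusted p = 0.0387). The late mature difference of ETFA was then 0.11 and did not pass (adjusted p = 0.36, limma). Without day 30 the old difference of ETFB was 0.31, which still passed. The ratio of ETFA to ETFB was 0.426 to 0.937 in young leaves, 0.924 to 1.29 in late mature leaves and 0.637 and 0.877 at day 30.

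ETFQO encodes the ubiquinone oxidoreductase that takes electrons from the flavoprotein. It lay between 2.08 and 6.28 FPKM (median 5.15) in young leaves, between 6.19 and 8.01 (median 7.49) in mature and between 7.36 and 9.05 (median 7.86) in late mature leaves. At day 26 it was 8.64 and 9.56 FPKM, at day 28 10.2 and 13.1, and at day 30 25.4 and 33.6. The old libraries were all above the mature ones. The change was 0.59 ± 0.13 from young to mature (adjusted p = 0.000671), 0.11 ± 0.13 from mature to late mature (adjusted p = 0.482) and 0.91 ± 0.13 from mature to old (adjusted p = 5.23e-06), which was 0.44 without day 30 and still passed. From day 28 to day 30 it rose 2.53-fold by mean FPKM (1.26 ± 0.23, adjusted p = 0.000439).

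Counted over the members, 9 were higher and 0 lower in mature than in young leaves (limma, adjusted p below 0.05), where 51.6% of all tested genes were higher and 16.7% lower. The members' median log2 change was 0.82, against 0.32 over all genes. In 6 members the mature libraries lay wholly above the young ones, as in 32.5% of all genes. BCAT2 is among both the 9 and the 6. It passed the filter on low values only through the later ages, where it is high, so its place in these counts and in the median is no support. BCE2, the 1 member that did not pass, went opposite ways in the sets, with a difference of 0.18 in set 1 and -0.28 in set 2, and it was lower under quantile normalization (-0.50, adjusted p = 5.64e-05).

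Quantile normalization also made the rises of MCCA (0.36), MCCB (0.53), D2HGDH (0.29), ETFA (0.53) and ETFQO (0.20) smaller by over 1.5 times, and they still passed.

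From mature to late mature leaves 6 members were higher and 0 lower, against 40.9% and 14.1% of all genes. Their median change was 0.36, against 0.22 over all genes, and in 1 member, LKR/SDH, the groups were separate, as in 17.9% of all genes. BCAT2 and LKR/SDH changed by 2.14 and 1.79, and the other 4 that passed (BCE2, IVD, D2HGDH and ETFA) by between 0.36 and 0.43. Under quantile normalization 2 members were higher (BCAT2 and LKR/SDH) and 2 lower (MCCA and ETFB). In that fit 4618 of 18239 genes were higher and 4592 lower, so these member counts say little about the members.

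From mature to old leaves 9 members were higher and 0 lower, against 48.3% and 27.1% of all genes. The median was 1.01 against 0.26 over all genes, and the old libraries lay wholly above the mature ones in 7 members, as in 32.7% of all genes. All 10 had a positive difference within each set. The share of all genes with a positive difference in both sets was not computed, so this is not called particular to the members. Within set 1 MCCA (0.04) and MCCB (0.10) lay below the median of all genes over both sets. Quantile normalization made the old differences of ETFA, ETFB and ETFQO smaller, at 0.48, 0.31 and 0.57, and they still passed. This comparison and the earlier ones share the mature libraries, so their changes are not independent of each other.

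**Figure D3:**
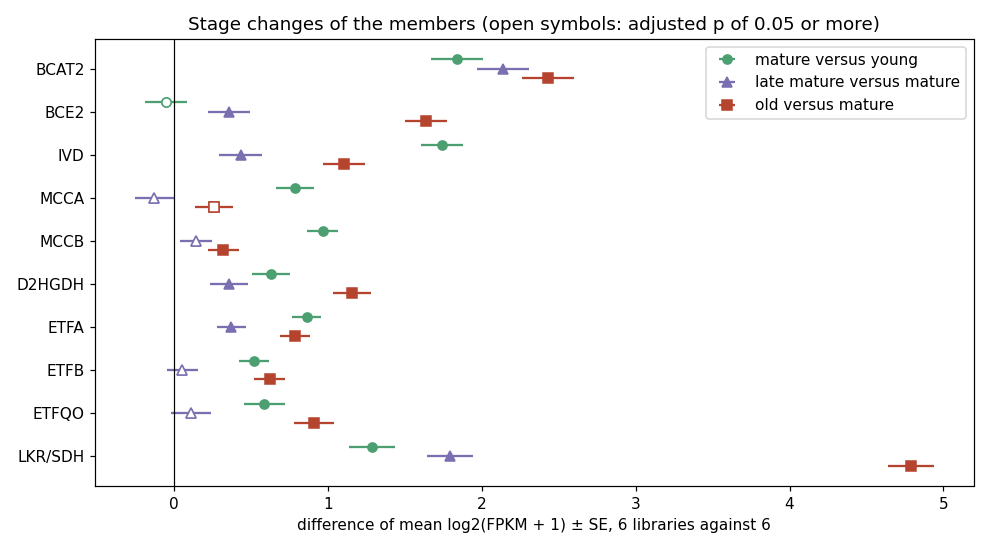
Difference of mean log2(FPKM + 1) with its standard error (horizontal axis) for each member (vertical axis) in 3 comparisons of 6 libraries against 6; open symbols mark an adjusted p of 0.05 or more. LKR/SDH and BCAT2 have the largest changes into the old stage, 4.79 and 2.43, and MCCA and MCCB the smallest, 0.26 and 0.32.

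Whether the later change differed from the earlier one was tested as a contrast of both changes. It passed for 6 members: the change into the old stage was the greater for BCE2 (difference 1.69 ± 0.24, adjusted p = 1.04e-05), D2HGDH (0.52 ± 0.21, adjusted p = 0.0468) and LKR/SDH (3.50 ± 0.26, adjusted p = 4.07e-09), and the smaller for IVD (-0.64 ± 0.24, adjusted p = 0.0318), MCCA (-0.53 ± 0.22, adjusted p = 0.0470) and MCCB (-0.64 ± 0.18, adjusted p = 0.00554). Over all genes 24.3% passed as greater and 29.2% as smaller. The member counts, 3 and 3 of 10, are near those shares and say little about the members as a group. Leaving out single libraries left between 3 and 6 members past the threshold, with 3 on leaving out set 1 of day 14, 26 or 28, and without day 4 neither IVD (-0.32) nor MCCA (-0.43) passed (adjusted p = 0.0959 and 0.0747), while ETFQO did (0.49, adjusted p = 0.0115). Without day 30 the D2HGDH difference was 0.18 (adjusted p = 0.549), and its call was also lost with a pseudocount of 0.1 (adjusted p = 0.137) or no filter on low values (adjusted p = 0.0643). The call was lost on leaving out any of 6 of the 18 libraries for IVD, 12 for MCCA and 14 for D2HGDH, whereas those of BCE2, MCCB and LKR/SDH held without each library in turn.

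The last steps of leaf life set 2 libraries against 2. From day 26 to day 28, 1 member was higher, LKR/SDH, and 0 lower, against 4.99% and 3.39% of all genes. BCE2 also passed under quantile normalization, after rescaling to nuclear genes and without day 4 (adjusted p = 0.0029, 0.0109 and 0.00387), and D2HGDH and ETFB without day 4 (adjusted p = 0.0385 and 0.049). From day 28 to day 30, 6 were higher (BCE2, MCCA, D2HGDH, ETFB, ETFQO and LKR/SDH) and 0 lower, against 9.01% and 21.8% of all genes. The members' median change over that step was 0.72, and that of all genes -0.18. Leaving out day 30 of set 2 gave a count of 2, and leaving out day 28 of set 1 a count of 3; ETFQO and BCE2 were called in both of these fits. D2HGDH also lost its call without day 30 of set 1 (adjusted p = 0.0824). In each of these 5 comparisons of ages the count of lower members was also 0 at an unadjusted p under 0.05 (limma). The share of all genes at that unadjusted threshold was not computed.

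Across the 14 ages the mean profiles of the members were alike to different degrees. Pearson's r on log2(FPKM + 1) was highest for ETFQO with ETFB (0.972) and for LKR/SDH with D2HGDH (0.970), and lowest for MCCB with BCE2 (0.504) and BCE2 with BCAT2 (0.622). These are descriptions over ages of the same libraries. The 8 genes outside the members whose profile was most like the members' mean profile, by the lower of the Pearson correlations in both sets over 14 ages, were AT5G18640 (0.993), AT5G65380 (0.993), AT1G07040 (0.992), AT2G37150 (0.992), ML2 (0.992), SINAT2 (0.992), VPS37-1 (0.991) and AT3G23540 (0.991). Likeness of this kind was common, since 30.7% of 16285 genes had a value over 0.8.

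The rest of the branched-chain breakdown pathway was read from a list of 12 further genes. From young to mature leaves 7 rose, 3 fell and 2 did not pass, and from mature to late mature leaves 6 rose, 2 fell and 4 did not pass. The shares that rose are near those of all genes, 51.6% and 40.9%, and say little about this list. From mature to old leaves 9 rose, 1 fell and 2 failed the test, against 48.3% and 27.1% of all genes (median 1.13, against 0.26 over all genes). The greatest rises into the old stage were those of AT5G09300 (2.06 ± 0.20, adjusted p = 2.93e-08), AT4G20930 (1.94, adjusted p = 6.57e-09), AT1G21400 (1.78, adjusted p = 3.18e-09) and DIN4 (1.63, adjusted p = 9.19e-08), which encodes a beta subunit of the first enzyme (E1) of the keto acid dehydrogenase complex.

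DIN4 followed BCE2, the E2 member of the same complex, in time. It was 13.6 and 22.5 FPKM at day 26, 17.4 and 28.1 at day 28, and 55.3 and 77.5 at day 30. The ratio of BCE2 to DIN4 lay between 0.656 and 1.67 in all 28 libraries while both levels changed several-fold. BCDH BETA1, the other E1 beta gene, was 13.1 and 14.8 FPKM at day 28 and 33.1 and 49.8 at day 30. DIN4 (1.52, adjusted p = 0.000835) and BCDH BETA1 (1.48, adjusted p = 0.000232) were the 2 of the 12 genes that rose from day 28 to day 30; CHY1, a 3-hydroxyisobutyryl-CoA hydrolase of valine breakdown, fell (-0.63, adjusted p = 0.0298), and 9 did not pass. Of all genes 9.01% rose over that step.

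The lipoamide dehydrogenase (E3) genes, whose product the keto acid dehydrogenase complex shares with other mitochondrial complexes, went apart. These genes were picked out after their values were seen, because mtLPD1 was the 1 gene of the list that fell into the old stage. mtLPD1 ranged from 60.7 to 81.2 FPKM in mature and from 19.5 to 46.4 in old leaves (-1.21, adjusted p = 2.10e-09), and mtLPD2 from 18.8 to 24.2 and from 51.4 to 61.5 FPKM (1.30, adjusted p = 5.67e-09). The groups of each gene were separate.

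Of 6 further genes of lysine breakdown and of pipecolate formation from lysine, 4 rose and 2 did not pass from young to mature leaves, and all 6 rose from mature to old leaves, with a median of 1.71, against 51.6% and 48.3% of all genes that rose. ALD1 and FMO1 are among the 6 and were under 1 FPKM in every young and mature library, so they were tested only because of the later ages, where they are high, and the count is no support for the list. AT1G07040 ranged from 17.3 to 23.3 FPKM in mature and from 40.9 to 232 in old leaves (2.27, adjusted p = 9.84e-11). ALDH7B4, an aldehyde dehydrogenase of the family that acts on aminoadipate semialdehyde in animals, ranged from 46.2 to 76.8 and from 142 to 366 FPKM (2.1, adjusted p = 7.74e-11). FMO1, which hydroxylates pipecolic acid, and ALD1, the aminotransferase that begins its synthesis from lysine, were at most 0.687 and 0.759 FPKM in mature leaves and between 2.80 and 6.86 FPKM and between 1.51 and 3.64 FPKM in old ones (differences of 2.17 and 1.32). AT1G07040 (1.14, adjusted p = 0.00217) and FMO1 (0.72, adjusted p = 0.0214) also rose from day 28 to day 30, and 4 did not pass, where 9.01% of all genes rose.

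Genes that make the same amino acids mostly fell in old leaves. Of 14 genes of branched-chain amino acid synthesis, 3 rose, 6 fell and 5 did not pass from young to mature leaves, and from mature to old leaves 1 rose, 10 fell and 3 failed the test (median -0.73), where 16.7% and 27.1% of all genes fell. CSR1, the acetolactate synthase gene, went from between 139 and 178 FPKM in mature to between 26.7 and 101 in old leaves (-1.53, adjusted p = 1.26e-07). BCAT3, a plastid branched-chain aminotransferase, went from between 33.8 and 42.0 to between 7.34 and 21.1 FPKM (-1.38, adjusted p = 3.55e-08). VAT1, a regulatory subunit of acetolactate synthase, fell by 1.08 on the log2 scale (adjusted p = 2.48e-06). From day 28 to day 30, 10 of the 14 fell, 0 rose and 4 failed the test (median -0.91), against 21.8% of all genes that fell and a median of -0.18.

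Of 13 genes of lysine synthesis, 2 rose, 9 fell and 2 did not pass from young to mature leaves, and from mature to old leaves 1 rose, 8 fell and 4 failed the test (median -0.62), against the same shares of all genes. The aspartate kinase gene CARAB-AK-LYS went from between 65.3 and 86.7 FPKM in mature to between 2.42 and 46.9 in old leaves (-2.43, adjusted p = 6.03e-11), and AK-HSDH I from between 19.8 and 28.6 to between 2.94 and 18.0 FPKM (-1.47, adjusted p = 2.49e-07). AK3, another aspartate kinase gene, had risen from between 1.91 and 17.2 FPKM in young to between 86.6 and 113 in mature leaves (3.30, adjusted p = 6.49e-11) and fell into the old stage by 0.85 on the log2 scale (adjusted p = 0.000255). From day 28 to day 30, 7 fell, 0 rose and 6 did not pass, where 21.8% of all genes fell and 9.01% rose. At an unadjusted p under 0.05 (limma) the count of synthesis genes that were higher over that step was also 0 in both lists.

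**Figure D4:**
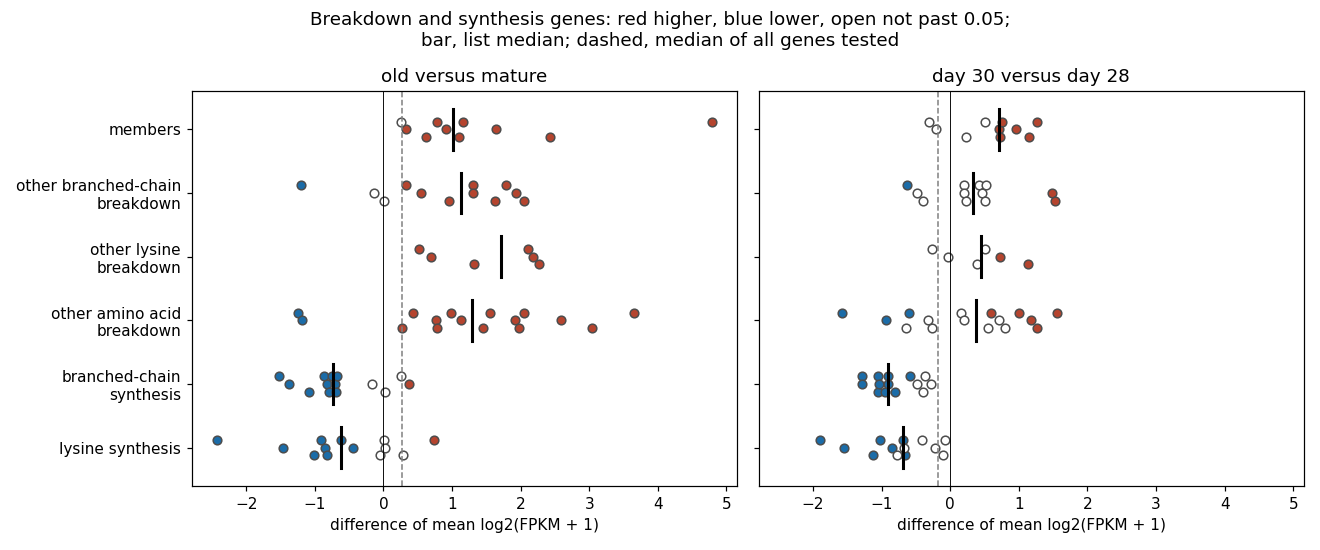
Difference of mean log2(FPKM + 1) of single genes (points) in 6 lists, for old against mature leaves (left, 6 libraries against 6) and day 30 against day 28 (right, 2 against 2); red is higher, blue lower and open not past an adjusted p of 0.05, with a bar for each list's median and a dashed line for the median of all genes tested. The breakdown lists have medians between 1.01 and 1.71 on the left, and the synthesis lists -0.73 and -0.62.

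Markers of other states and tissues moved over the same ages. Among all genes tested, 48.3% rose and 27.1% fell from mature to old leaves, and 51.6% rose from young to mature. Of 4 leaf markers all 4 fell from mature to old leaves, and of 4 senescence markers 3 rose and SEN1 did not pass; the summed FPKM of the senescence markers was 136 to 202 in mature and 433 to 3770 in old leaves. Of 5 vascular markers 1 rose and 4 fell, with sums of 192 to 252 and 110 to 155 FPKM, and XCP2, a xylem marker, was at most 1.14 FPKM in old leaves. Of 4 clock genes, listed as a sign of the hour of harvest, 4 rose from young to mature leaves, with sums of 21.8 to 65.0 and 111 to 146 FPKM, and from mature to old leaves 2 rose, 1 fell and 1 did not pass, with sums of 114 to 161 FPKM in old leaves. Of the 6 meristem and flower markers 2 were tested, SEP3 and AG. SEP3 rose from young to mature leaves (0.36, adjusted p = 0.0020, limma), and AG fell from mature to old leaves (-0.34, adjusted p = 0.0066, limma). The part of all these markers in the members' changes was not tested.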

How the data were processed

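Total RNA of 28 leaf libraries was analysed. The authors deposited FPKM per transcript model, made with Cufflinks and TopHat 1.4.0 on TAIR10 per the submitters' processing notes, which give no settings. The 41673 models were summed to 33604 genes, of which 32835 matched a reference name. FPKM are relative to the mapped fragments of each library, so a large change in a few abundant genes shifts all others, and depth is unknown. The members hold 19 models.

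Genes reaching 1 FPKM in 2 or more libraries (18239) were kept. Their log2(FPKM + 1) values entered a limma fit (version 3.58.1, with trend) in R 4.3.3, with age as a factor and set as a block, and tested on simulated data first. Benjamini-Hochberg adjustment covered every tested gene, and 0.05 was the threshold. Alternatives changed the pseudocount, filter, block, scaling, days, models or libraries. Python 3.11.15, numpy 2.4.6, pandas 2.3.3 and matplotlib 3.10.9 were used for descriptions and plots.

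The members, stages and lists were chosen with earlier results of these data known. Named genes are all members, up to 4 genes per other list and comparison with the largest change among those that passed, and the 8 most alike profiles, with exceptions named as such. The 14 small RNA libraries were not used here, since their sequences carry no gene name. Loci to which the reference gives no symbol are named by their identifier. Sequences were not analysed here.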

Additional observations from a re-analysis of the deposited data

Results flagged for a closer look

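In each of 40 groups (10 members in 4 stages of 6 libraries) the highest or lowest library was compared with its nearest neighbour by Dixon's ratio of gap to range. For independent values of a common normal distribution chance flags about 1 in 20 such groups. Each group here pools 3 ages, and the members share libraries, so that rate need not hold. In 6 of the groups a library lay far from the rest. In 5 of them it was the day 4 library of set 1, which also stood apart over all genes, and in 1 the day 16 library of set 1.

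In young leaves BCAT2 was 0.192 FPKM in the day 4 library of set 1 and listed at 0 in the other 5. With the others at 0, any level above 0 in that library would have been flagged. That library was the lowest young one for D2HGDH (1.71 FPKM, the next at 2.94), ETFB (2.66 FPKM, the next at 4.33), ETFQO (2.08 FPKM, the next at 4.43) and LKR/SDH (0.366 FPKM, the next at 0.918). In mature leaves D2HGDH was highest in the day 16 library of set 1, at 6.30 FPKM, the next at 5.08. The young ranges in the text hold these libraries; without day 4, 9 members were again higher in mature than in young leaves.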

How the results depend on the processing

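The counts of 9 members higher in mature than in young leaves and of 9 higher in old than in mature leaves stayed within 8 and 10 under each of the 8 alternatives and on leaving out each library. BCAT2 is in the first of these counts, where its place is no support. Of single changes, 436 kept their direction and call under the alternatives, 14 passed newly, 17 no longer passed and 3 reversed; on leaving out libraries 562 kept both, 4 passed newly and 54 no longer passed. Quantile normalization brought the median of all genes from 0.32, 0.22 and 0.26 to 0.03, 0.01 and 0.04 and the share of higher calls among all calls from 75.5%, 74.4% and 64.0% to 53.0%, 50.1% and 52.2% (mature, late mature and old). With it 1 member was lower from young to mature leaves, 2 were higher and 2 lower from mature to late mature, and 2 were higher from day 26 to 28. Of 18239 genes tested with it, 5479 were lower from young to mature leaves. From mature to late mature 4618 were higher and 4592 lower, and from day 26 to 28 1508 were higher. The reversed changes were ETFB, late mature (-0.20), and MCCB, old (-0.030), both under quantile normalization, and BCAT2 in the contrast of both changes with a pseudocount of 0.1 (-1.68). With the most abundant model alone 1 member, BCE2, was lower from young to mature leaves, as were 2874 of 18193 genes. From day 26 to 28, 2 members were higher after rescaling to nuclear genes and 4 without day 4. Over all genes 1244 of 18295 and 1953 of 18102 were higher in these fits. Leaving out libraries gave 2 to 6 higher members from day 28 to 30, 4 to 6 in late mature leaves and 3 to 6 with a different change; the causes were not tested. No value exists for day 30 against 28 without day 30.

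The set number is the replicate number of the labels; differences between the sets correlated between days at -0.15 to 0.65 (median 0.23), above 0.1 in 66 of 91 pairs of days. The sets thus shared a component on many days, but not on all of them, and the labels name nothing that a set number marks. With no replicate block 9, 6 and 9 members were higher in mature, late mature and old leaves. From day 26 to 28 1 was higher, and from day 28 to 30 5 were (MCCA not, adjusted p = 0.0728, limma). In that fit 4 had a different change (not MCCA or D2HGDH). All 10 changed over the ages, as did 16232 of 18239 genes, and the place of BCAT2 among the 10 is no support. FPKM give no depth, and low members such as BCAT2 in young leaves are compressed by the pseudocount.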

Other observations

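The breakdown genes of other amino acids, read from a list of 16, mostly rose as the leaf aged. From young to mature leaves 14 rose, 0 fell (also at an unadjusted p under 0.05, limma) and 2 did not pass, where 51.6% of all genes rose. From mature to old leaves 14 rose and 2 fell, where 48.3% rose and 27.1% fell, with a median log2 change of 1.29 against 0.26 over all genes. GDH2, a glutamate dehydrogenase, went from between 7.12 and 12.7 FPKM in mature to between 55.3 and 374 in old leaves (3.66 ± 0.14, adjusted p = 9.49e-14, limma), while GDH1, which encodes the other main subunit, was among the 2 that fell, from between 31.9 and 39.4 to between 2.77 and 41.2 FPKM (-1.25, adjusted p = 6.42e-06). AT5G38710 went from between 8.33 and 12.8 to between 35.9 and 219 FPKM (3.04, adjusted p = 6.79e-12), and TAT7, a tyrosine aminotransferase, from between 22.8 and 27.8 to between 59.4 and 391 (2.58, adjusted p = 1.83e-12). THA1, a threonine aldolase, was at most 0.210 FPKM in mature leaves and between 1.06 and 9.45 in old ones, a difference of 2.04. It was under 1 FPKM in every young and mature library and was tested only because of the later ages, where it is high, so its place among the 14 is no support. GDH1, named after its values were seen, and the arginase gene ARGAH2 (-1.18, adjusted p = 9.21e-06) were the falls, and both had risen from young to mature leaves (1.55, adjusted p = 8.14e-07, and 1.38, adjusted p = 2.48e-06).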
